A study of Mus musculus with 23 samples.

Results

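The HIN200 genes encode the interferon-inducible p200 proteins, most of which carry a DNA-binding HIN domain, a pyrin domain, or both. Here 9 of them were followed among the 13572 gene rows of a count table: Ifi203, Ifi204, Ifi205, Ifi211, Ifi207, Ifi209, Ifi213, Mndal and Aim2. They were taken by symbol, but the family was selected for description because members had measured differences between the tumour groups in these samples. The difference between groups is therefore given for them as a description. The calls that the fit across all genes and its alternatives made for them are counted in a single paragraph, beside the share called among all genes, and support nothing. Of the 9 genes, 7 passed the count filter together with 2069 others (2076 tested genes in all), and Ifi213 and Aim2 did not. A further 3 family genes in the table, Ifi206, Ifi208 and Ifi214, are outside that choice and are described briefly.

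Type 1 conventional dendritic cells (cDC1) take up material from dying cells and present its antigens to CD8 T cells. Members with a HIN domain can bind double-stranded DNA. AIM2 detects DNA in the cytosol and assembles an inflammasome through the adaptor ASC (gene Pycard), which activates caspase-1, whereas the p204 protein of Ifi204, a relative of human IFI16, has been described as a DNA sensor that acts through STING (gene Tmem173). Several of the genes are themselves induced by interferon through interferon-stimulated response elements (ISRE) in their promoters.

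RNA was measured with Smart-seq3, a full-length method for small numbers of cells, in pools of 10 cells. CD103+ CD11b- dendritic cells, positive for CD45, MHC-II and CD11c, were sorted from subcutaneous melanomas of wild-type C57BL/6 mice 6 days after injection. Control tumours grew from BRAFV600E melanoma cells that make prostaglandin E2 (PGE2). PGE2-deficient tumours grew from BRAFV600E cells with a knockout of Ptgs1 and Ptgs2, the enzymes that start prostaglandin synthesis. Both groups thus share the BRAFV600E tumour and the wild-type host, and the sources used here do not give the ages of the mice. The knockout is in the tumour cells, so sorted dendritic cells do not check it. Nor do the sources used here say whether the tumour cells are 1 clone. Each group had 4 mice with up to 3 pools, which the labels call technical replicates, giving 12 control and 11 PGE2-deficient pools. Counts were summed per mouse, and the mouse is the replicate throughout.

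Pools held 25571 to 98554 counts (median 49506) and mice 101017 to 230478. All 12 cDC1 markers had counts in both groups, with a summed level of 2788 to 4215 CPM, that is, counts scaled to a common total over tested genes, in control mice and 4745 to 6705 CPM in PGE2-deficient mice. Of the 11 tested cDC1 markers, 4 were called higher with PGE2-deficient tumours and 7 were not called, beside 2.7% of all tested genes called higher. Their log2 fold changes ran from -0.23 to 2.16. Control mice held 184 counts of 9 macrophage and monocyte markers (23 to 823.2 CPM) against 74 (99.1 to 201.7 CPM), among them Ly6c2 with 48 against 50 and C1qb with 40 against 0. They held 109 counts of plasmacytoid dendritic cell markers (0 to 662.4 CPM) against 4 (5.1 to 11.9 CPM). Siglech gave 42 counts against 0 and Ly6d 34 against 0, and Dntt was at 0 in both groups. T cell markers gave 14 counts (0 to 126.5 CPM) against 64 (0 to 272.4 CPM), of which Cd3d gave 5 against 18 and Trbc2 1 against 18, with Trbc1 and Cd2 at 0 in control mice. NK cell markers gave 3 counts against 20, with Gzmb at 0 against 19 and Klrb1c at 3 against 1. The cDC2 markers gave 118 counts against 55, with Cd209a at 49 against 5 and Mgl2 at 24 against 18. Melanoma markers gave 9 counts against 1, with Dct at 6 against 1 and Pmel at 3 against 0, and the B cell marker Cd79b was at 0 in both groups.

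The genes lie in 1 cluster on chromosome 1 of the mouse genome (GRCm38), from 173350879 to 174031810, a span of 680.9 kb. GENCODE M21 places 13 protein-coding genes there, all of the HIN200 family. Aim2 and Ifi205 sit at opposite ends. Within 500 kb on either side of the cluster the table held Olfr433, with 8 control and 3 PGE2-deficient counts, and Olfr432, with 0 and 2. The gene model of Mndal (173849126 to 173942491, minus strand) spans that of Ifi211 and overlaps most of that of Ifi203 (173920407 to 173942672), both on the same strand. Reads in the shared parts may have been given to any of these genes.

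Of the family genes in the table, 11 had an entry in the RefSeq promoter table (GRCm38.p6; 250 bases before to 50 after the start site). The core ISRE, written GAAANNGAAA and searched on both strands, stood in a window of 9 of the 11 genes, against 3.99% of all 27025 genes in that table (3.44% of its 32851 windows, since some genes have several). Among the 9 chosen genes 8 had an entry, and 6 of these held the core. The stretches around the forward match are shown because they are a sequence feature that these neighbouring genes share. Each runs 5′ to 3′ on the gene's strand, all 6 genes being on the minus strand, with the ISRE core in capitals.
Ifi205: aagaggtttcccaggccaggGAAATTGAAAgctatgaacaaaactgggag
Ifi211: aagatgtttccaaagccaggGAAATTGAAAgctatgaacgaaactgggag
Ifi207: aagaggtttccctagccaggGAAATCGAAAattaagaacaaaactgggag
Mndal: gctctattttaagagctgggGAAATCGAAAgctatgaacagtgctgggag
Ifi203: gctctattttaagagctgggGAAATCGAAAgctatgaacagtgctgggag
Ifi213: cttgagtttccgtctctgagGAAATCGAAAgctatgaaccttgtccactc

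The Ifi205 stretch lies at chr1:174031860-174031909 and the Ifi211 stretch at chr1:173913054-173913103. The Ifi207 stretch is at chr1:173741821-173741870, that of Mndal at chr1:173880194-173880243, that of Ifi203 at chr1:173942498-173942547 and that of Ifi213 at chr1:173599316-173599365. Ifi205 and Ifi211 have TT between the repeats, and the other 4 have TC. The core begins 35 bases before the start site in Ifi203, 36 in Mndal, 37 in Ifi211, 41 in Ifi207, 73 in Ifi213 and 134 in Ifi205. The Mndal and Ifi203 stretches are the same over all 50 bases, and the RefSeq start of Mndal lies inside the longer GENCODE model. Mndal and Ifi205 each had another match on the reverse strand. The windows of Aim2 and Ifi209 did not hold these letters. A gamma-activated site (TTCNNNGAA, in 8.3% of all windows) was in none of the chosen genes' windows, and neither was an ETS-IRF element (GGAANNGAAA, in 2.72%).

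Summed over the 9 genes, HIN200 transcripts were more abundant in the sorted pools from PGE2-deficient tumours. The 9 genes together took 3278, 3011, 3704 and 3011 CPM in control mice 1 to 4 and 6686, 3903, 6205 and 7685 CPM in PGE2-deficient mice 1 to 4. The groups did not overlap, although PGE2-deficient mouse 2, which had 2 pools, came close to the controls. Their means were 3251 ± 326.9 and 6120 ± 1601 CPM (SD, n = 4 each), a ratio of 1.88. As a share of the counts of tested genes, the family made up 0.301% to 0.37% in control mice and 0.39% to 0.769% in PGE2-deficient mice. In pooled cells, more RNA per cell and more cells of a kind that makes it cannot be told apart. The summed cDC1 markers were also separate, at 2788 to 4215 CPM in control mice and 4745 to 6705 CPM in PGE2-deficient mice. Whether these differences share a source was not tested.

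**Figure D1:**
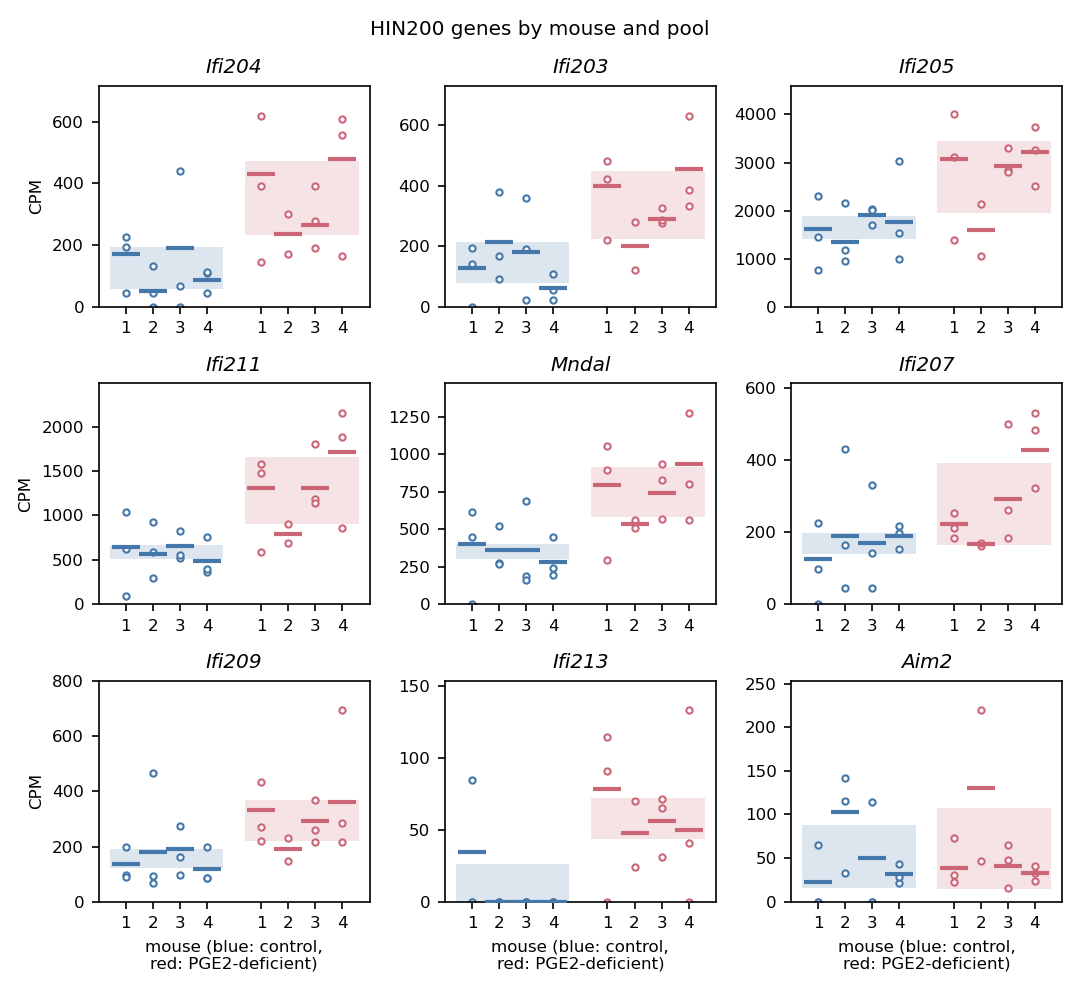
CPM of the 9 HIN200 genes in control (blue) and PGE2-deficient (red) mice 1 to 4; open circles are pools, thick ticks the mouse from its summed counts, and bands the mean ± SD over 4 mice, drawn down to 0 where they would pass it. Ifi204, Ifi211, Mndal and Ifi213 show no overlap between the ticks of the groups, and Ifi213 had too few counts to be tested. Of all tested genes, 4.91% had all PGE2-deficient mice above all control mice. PGE2-deficient mouse 2 is the lowest of its group for 8 of the genes but the highest for Aim2.

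Ifi204, the p204 gene, was among the scarcer members. It stood at 172.5, 51.6, 190.7 and 86.2 CPM in the 4 control mice and at 428.8, 237.2, 265.3 and 478.8 CPM in the PGE2-deficient mice. Every PGE2-deficient mouse was above every control mouse. The means were 125.3 ± 67.0 and 352.5 ± 119.2 CPM, and the log2 fold change was 1.53 ± 0.36 (edgeR estimate ± SE, 4 mice against 4). Ifi204 was detected in 10 of 12 control pools and 11 of 11 PGE2-deficient pools.

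Ifi203, another p200 gene, overlaps the Mndal gene model. Its levels were 126.5, 215.1, 180.7 and 62.7 CPM in control mice and 399.6, 201.7, 290.9 and 454.0 CPM in PGE2-deficient mice. Here the groups overlapped, since PGE2-deficient mouse 2 fell below control mouse 2. The means were 146.3 ± 66.6 and 336.5 ± 112.6 CPM (log2 fold change 1.21 ± 0.34).

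Ifi205, whose product has been linked to the expression of ASC in macrophages, supplied the most counts. Control mice held 1610, 1342, 1907 and 1756 CPM, and PGE2-deficient mice 3080, 1601, 2924 and 3228 CPM. PGE2-deficient mouse 2 lay within the control range and the other PGE2-deficient mice lay above it. The means were 1654 ± 240.5 and 2708 ± 748.1 CPM (log2 fold change 0.72 ± 0.18). The estimate was 0.42 without the pools that held 10 or more counts of macrophage, plasmacytoid or T cell markers (6 control and 4 PGE2-deficient pools), and 0.90 without PGE2-deficient mouse 2.

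Ifi211 was next in counts, with 644.2, 567.9, 652.4 and 486.1 CPM in control mice and 1306, 794.8, 1306 and 1717 CPM in PGE2-deficient mice. The groups were separate, at 587.6 ± 77.6 and 1281 ± 377.6 CPM (log2 fold change 1.14 ± 0.21). Mndal, named after the human myeloid nuclear differentiation antigen, held 402.6, 361.4, 361.3 and 282.3 CPM against 799.2, 533.8, 739.9 and 932.8 CPM. These groups were also separate, at 351.9 ± 50.3 and 751.4 ± 166.0 CPM (log2 fold change 1.11 ± 0.21). For both genes PGE2-deficient mouse 2 was the lowest and mouse 4 the highest of the PGE2-deficient mice.

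Ifi209 and Ifi207 differed less against their spread. Ifi209 held 138.0, 180.7, 190.7 and 117.6 CPM in control mice and 331.4, 189.8, 290.9 and 363.2 CPM in PGE2-deficient mice (log2 fold change 0.92 ± 0.28). Control mouse 3 was just above PGE2-deficient mouse 2. Ifi207 held 126.5, 189.3, 170.6 and 188.2 CPM against 224.2, 166.1, 290.9 and 429.2 CPM (log2 fold change 0.73 ± 0.30). PGE2-deficient mouse 2 lay inside its control range, and mouse 4 stood well above the others. Without PGE2-deficient mouse 4 the Ifi207 estimate was 0.44, and without the pools holding markers of other cells it was 1.12.

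By edgeR's quasi-likelihood test with Benjamini-Hochberg adjustment over all tested genes, 5 of the 7 members passed an adjusted p of 0.05 in the higher direction (Ifi203, Ifi204, Ifi205, Ifi211 and Mndal) and 0 in the lower. Of all tested genes 2.7% were called higher and 2.26% lower. Of the 7, Ifi204, Ifi211 and Mndal had all PGE2-deficient mice above all control mice, as did 4.91% of all tested genes. Over the alternatives, Ifi211 and Mndal were called in 20 of 20, Ifi204 in 17 of 20, Ifi205 in 13 of 20, Ifi203 in 10 of 19, Ifi209 in 3 of 20 and Ifi207 in 0 of 20. The family was chosen on this contrast, so nothing is read from these counts. The members' log2 fold changes ran from 0.72 to 1.53 (median 1.11), beside a median of 0.00793 over all tested genes.

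**Figure D2:**
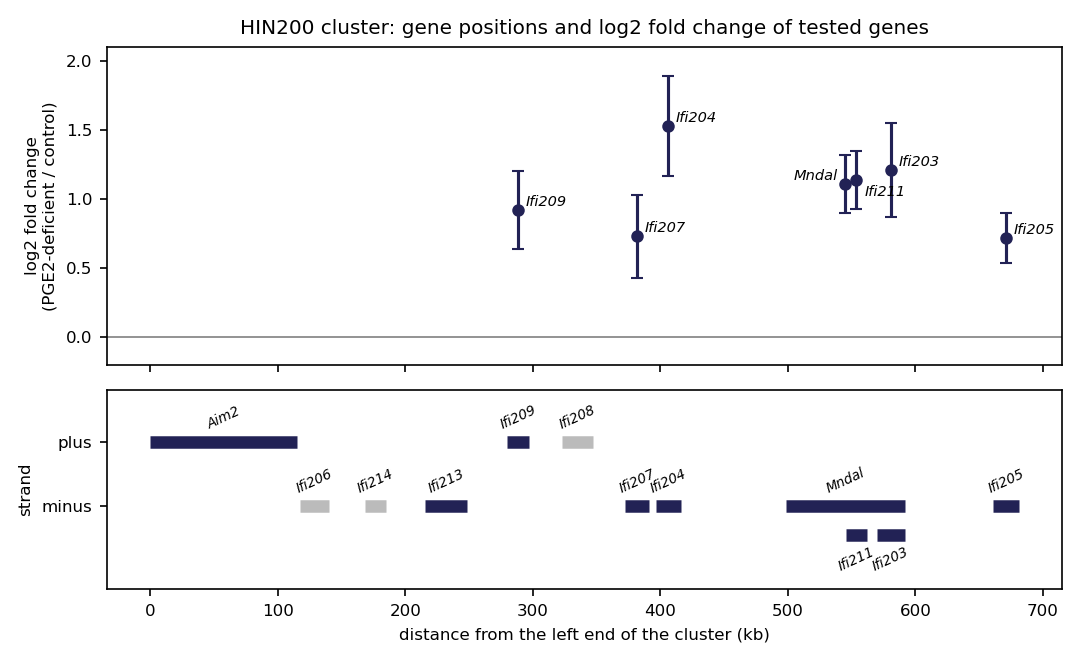
Upper panel, log2 fold change (PGE2-deficient over control, ± SE) of the 7 tested HIN200 genes at the middle of each gene, and lower panel, the gene models by strand, with the chosen genes dark and the further family genes grey; the x axis is the distance in kb from the left end of the cluster. All 7 estimates lie above 0, from 0.72 (Ifi205) to 1.53 (Ifi204), and the Mndal model covers Ifi211 and overlaps Ifi203.

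Ifi213 and Aim2 had too few counts to be tested. Ifi213 gave 3 counts in control mice, all in 1 pool of mouse 1 (34.5 CPM), and 0 in the other 3 mice, where a count of 0 allows up to 3 counts, or 23.5 to 30.1 CPM. PGE2-deficient mice gave 29 counts, at 78.0, 47.4, 56.1 and 49.5 CPM, in 9 of 11 pools. The ratio of summed counts, scaled to depth, was 8.25 with an exact 95% interval of 2.56 to 42.3. That interval takes each count as independent and leaves out the spread between mice, so it may be too narrow. Aim2, the inflammasome sensor, gave 23 and 27 counts, at 23, 103.2, 50.2 and 31.4 CPM in control mice and 39.0, 130.5, 40.8 and 33.0 CPM in PGE2-deficient mice. Its groups overlapped over nearly their whole range (51.9 ± 36.0 and 60.8 ± 46.6 CPM), and a difference was not detectable at this depth. In mouse 2 of the PGE2-deficient group, Aim2 was the highest of its group while 8 other members were the lowest of theirs.

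Among the further family genes, Ifi214 gave 6 and 25 counts, with 10.0 to 17.2 CPM in control mice and 35.7 to 66.0 CPM in PGE2-deficient mice, without overlap. Ifi206 gave 4 and 9 counts and Ifi208 1 and 6. The ratio for Ifi208 was 5.12 with an exact 95% counting interval of 0.622 to 236. The pseudogene Ifi203-ps gave 5 and 14 counts.

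Levels between genes were compared per kilobase of exon sequence (GENCODE M21), which assumes reads along the whole transcript. In control mice Ifi205 and Ifi211 led with 396 ± 57.6 and 329.2 ± 43.5 CPM per kb, and they did not differ beyond their spread (taken as the sum of the SDs). Mndal followed at 97.0 ± 13.9, apart from its neighbours on either side. Ifi207, Ifi209, Ifi204, Ifi203 and Aim2 came next at 49.3, 44.2, 35.2, 21.8 and 14.8 CPM per kb, and no neighbours in that order differed beyond their spread. Ifi213 was last at 1.26 ± 2.52. In PGE2-deficient mice Ifi211 came first at 717.6 ± 211.5 CPM per kb and Ifi205 followed at 648.3 ± 179.1, a difference within their spread. Mndal stood at 207.1 ± 45.8 and Ifi204 at 99.0 ± 33.5. Ifi209, Ifi207 and Ifi203 lay at 82.8, 81.1 and 50.2, each within the spread of its neighbour, above Aim2 at 17.4 and Ifi213 at 8.45 CPM per kb. Of the family's counts, Ifi205 gave 51.2% in control mice and 44.8% in PGE2-deficient mice, Ifi211 17.9% and 21%, and Mndal 10.7% and 12.2%.

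The genes are similar enough for short reads to match more than 1 of them. Of all 50-base stretches in Ifi211 transcripts, 72.8% also occurred in transcripts of another gene, with 44.7% in Ifi205. The share was 33.7% for Ifi209 (33.4% in Ifi214), 20.02% for Ifi204, 19.6% for Mndal, 18.6% for Ifi205, 15.6% for Ifi213, 12.2% for Ifi203, 7.29% for Ifi207 and 0.628% for Aim2. The sources used here do not give how reads with several matches were counted. The split of counts between Ifi211 and Ifi205, and between Ifi211, Ifi203 and Mndal, is therefore uncertain.

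Single pools varied more than their counts alone would give. The variance between pools of a mouse, divided by that expected from counting, was 10.4 for Ifi205, 5.75 for Ifi211, 4.67 for Mndal and 3.55 for Ifi204, against a median of 1.71 over tested genes (quartiles 1.27 and 2.4). It was 2.95 for Ifi209, 2.83 for Ifi207 and 2.54 for Ifi203. This ratio grows with the number of counts, so it does not rank the genes by their biological spread. Summed over the 9 genes, control pools ran from 983.6 to 4919 CPM (median 3012) and PGE2-deficient pools from 3111 to 8607 CPM (median 5870). Pool 3 of control mouse 1 was the lowest control pool, with 22 family counts, of which Ifi205 gave 17 while Ifi203, Ifi207 and Mndal were at 0. Pool 1 of PGE2-deficient mouse 1 was the lowest of its group, at 3111 CPM beside 8414 and 7063 CPM in the other pools of that mouse. Neither of these low pools stood out for macrophage, plasmacytoid or T cell markers, which gave 1 and 0 counts there. The control pool held 63 cDC1 marker counts, the fewest of all pools, in a total of 30277 counts. The PGE2-deficient pool held 184 cDC1 marker counts in a total of 34088, both the lowest of its group.

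**Figure D3:**
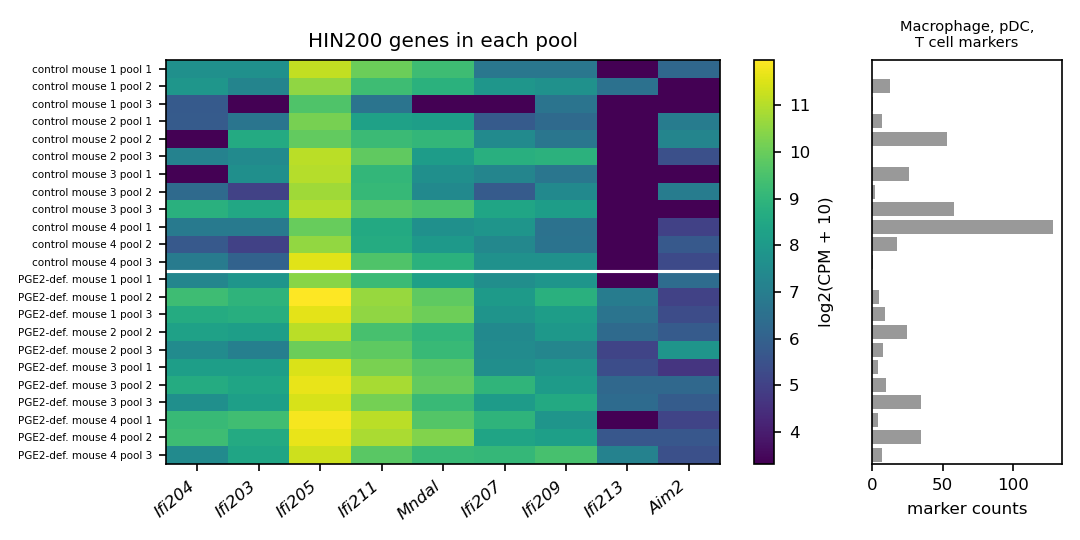
Left, log2(CPM + 10) of the 9 genes (columns) in each of 23 pools (rows, control above the white line); right, counts of macrophage, plasmacytoid dendritic cell (pDC) and T cell markers in the same pools. Pools with 0 or 1 marker counts are found with both low and high HIN200 levels, and the control pool with 128 marker counts has a summed level of 2104 CPM.

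Without the 10 pools holding 10 or more such marker counts, the summed level was 984 to 4836 CPM (median 3704) in 6 control pools and 3111 to 8607 CPM (median 5870) in 7 PGE2-deficient pools. The log2 fold changes in that fit were 1.75 for Ifi204, 1.28 for Mndal, 1.05 for Ifi211 and 0.76 for Ifi209, and Ifi203 no longer passed the count filter. Over the alternatives in which they were fitted, all 7 genes kept a positive fold change, but the alternatives reuse the same mice and add no support. Leaving out 1 mouse in turn gave 0.95 to 1.30 for Ifi211, 0.97 to 1.23 for Mndal, 1.25 to 1.81 for Ifi204, 0.93 to 1.47 for Ifi203 and 0.61 to 0.90 for Ifi205.

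The members went up and down together from pool to pool within a group. Group means were subtracted from log2(CPM + 10), and Pearson's r was taken over the 23 pools for the 21 pairs of tested members. All 21 were positive, with a median of 0.498, from 0.144 (Ifi204 with Ifi203) to 0.859 (Mndal with Ifi211). Mndal with Ifi203 (0.771) and Ifi211 with Ifi205 (0.763) were also high, and these pairs share gene models or sequence. Ifi207 shares little sequence with the others and reached 0.742 with Ifi211 and 0.744 with Mndal. In pool 3 of control mouse 1, however, Ifi207 and Mndal were both at 0 and Ifi211 was at 89.4 CPM, its lowest value. Such a pool weighs heavily in r, and the pairs were not recomputed without it. Pools of 1 mouse share their source, so these values are descriptive.

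Among all other tested genes, those most like the summed HIN200 level by the same measure included Sp100 (r = 0.82), Ptms (0.77), Dck (0.729) and Zbp1 (0.717). Sp100 encodes a nuclear body protein, Ptms parathymosin, Dck deoxycytidine kinase and Zbp1 a sensor of Z-form nucleic acids. Sp100 and Zbp1 are also members of the interferon response list. The median r was 0.577 over the 20 tested genes of the interferon response list, 19 of them positive, 0.349 over 11 cDC1 markers and 0.024 over all 2069 other tested genes. The summed level also had r = 0.321 with the total count of a pool and 0.336 with its number of detected genes. Without the 2 low pools described above, which are the farthest from the median, r was 0.728 for Sp100, 0.641 for Ptms, 0.548 for Dck and 0.603 for Zbp1 over 21 pools. The median of the interferon response list over these 21 pools was 0.486, and r with the total count 0.11. Over these 21 pools Sp100 ranked 4, Ptms 17, Zbp1 28 and Dck 47. Over the 8 mice in place of pools, r was 0.946 for Sp100 (rank 2), 0.752 for Ptms (rank 65), 0.694 for Dck (rank 112) and 0.68 for Zbp1 (rank 122). Sp100 thus stayed among the 5 most alike genes in both settings, and Ptms, Dck and Zbp1 did not.

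**Figure D4:**
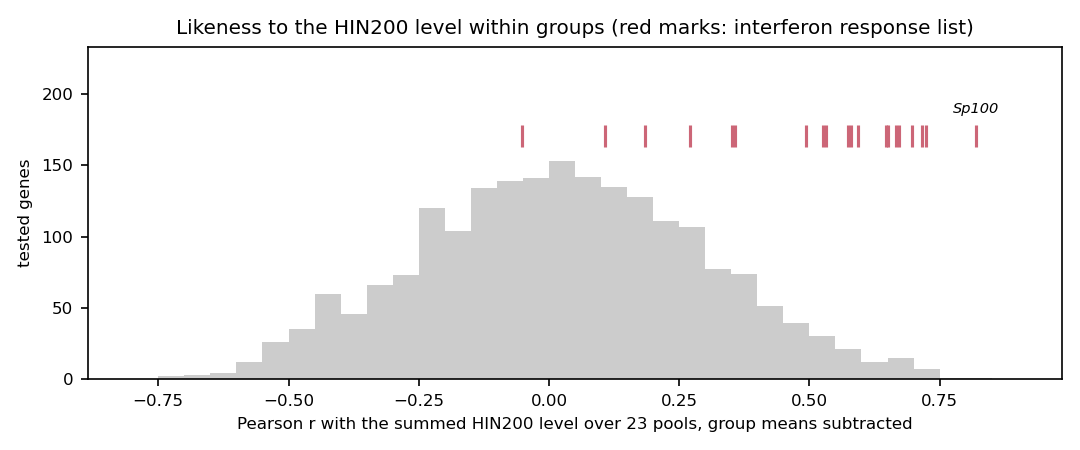
Histogram of Pearson's r between each of 2069 tested genes and the summed HIN200 level over 23 pools, after subtracting group means; red marks are the 20 tested interferon response genes. The grey distribution is centred near 0 (median 0.024) and 19 of the 20 red marks are above 0, with Sp100 at 0.82.

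Other genes of DNA sensing were mostly at low counts. Of a list of 29, 23 were in the table and 8 were tested: 1 was called higher (edgeR, adjusted p under the threshold) and 0 lower, with a median log2 fold change of 0.298. For this list and those below, the share over all tested genes was 2.7% called higher and 2.26% called lower. The called gene was Zbp1, at 92.0, 25.8, 80.3 and 62.7 CPM in control mice and 116.9, 237.2, 244.9 and 189.9 CPM in PGE2-deficient mice, without overlap. The lists share genes: Zbp1 is counted again among the called interferon response genes below, and Irf7 is also in both interferon lists. The log2 fold change of Zbp1 was 1.63 ± 0.38 (edgeR adjusted p = 0.018, higher in 4 of 4 mice). The call was lost without control mouse 2 or without PGE2-deficient mouse 3 (adjusted p from 0.00352 to 0.0601 over 19 alternatives). Without the pools holding markers of other cells, Zbp1 did not pass the count filter. Tmem173, which encodes STING, gave 39 and 36 counts, and its groups overlapped (85.9 ± 45.2 and 70.1 ± 44.4 CPM). Mb21d1, which encodes the DNA sensor cGAS, gave 10 and 25 counts (23.3 ± 10.4 and 53.5 ± 19.8 CPM). Neither passed the count filter.

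Of 16 inflammasome genes, all were in the table and 2 were tested, of which 0 were called higher and 1 lower. Il1b, the cytokine that caspase-1 processes, fell from 1564, 1807, 2359 and 2658 CPM to 769.9, 818.5, 627.6 and 668.6 CPM (log2 fold change -1.55 ± 0.18, edgeR adjusted p = 1.55e-05), the opposite direction to the HIN200 estimates. Every PGE2-deficient mouse was below every control mouse, and the call held in all 20 alternatives (adjusted p from 4.65e-13 to 0.00905). Pycard gave 47 and 34 counts (107.4 ± 45.1 and 60.0 ± 28.1 CPM) and Casp1 17 and 19 (34.6 ± 42.2 and 38.0 ± 13.8 CPM). Both overlapped between groups and were not tested.

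Of 22 interferon signalling genes, 15 were tested: 2 were called higher and 0 lower, with a median log2 fold change of 0.455. Irf8, a transcription factor that cDC1 need to develop and also a cDC1 marker here, rose from 943.2, 550.7, 1204 and 650.8 CPM to 1744, 1566, 1250 and 1478 CPM (log2 fold change 0.85 ± 0.21, edgeR adjusted p = 0.0215, higher in 4 of 4 mice). The groups were separate, but the call was lost in 4 of the 8 fits that left out 1 mouse, namely control mouse 2 or 4 or PGE2-deficient mouse 1 or 4. It was also lost with pools 2 and 3 alone and without the pools holding markers of other cells, and the adjusted p over the alternatives ran from 0.000632 to 0.177. Irf7, a regulator of type I interferon genes, was at 104.7 ± 76.3 and 263.0 ± 118.6 CPM (1.44 ± 0.45, edgeR adjusted p = 0.0681), with 3 of 4 PGE2-deficient mice above all controls. Without the pools holding markers of other cells the log2 fold change of Irf7 was 2.73, and it then passed (adjusted p = 0.031).

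Of 50 interferon response genes, 49 were in the table and 20 were tested. All 20 had a positive fold change, 9 were called higher and 0 lower, and the median was 0.908. Of all tested genes 2.7% were called higher. The count filter can admit a gene through the group in which it is higher, so the signs and calls can be partly set by it. This limit applies to the lists above as well. The 4 called genes with the smallest p, Ifi27l2a, Isg15, Phf11b and Epsti1, had log2 fold changes of 2.38 ± 0.23, 2.58 ± 0.37, 2.04 ± 0.34 and 2.13 ± 0.46, with edgeR adjusted p of 2.03e-06, 0.000237, 0.00136 and 0.0104. These exceed all 7 HIN200 estimates, but the 4 genes were picked by their small p. The median of the whole list was 0.908 and that of the HIN200 genes 1.11, and no difference was tested. All 4 had every PGE2-deficient mouse above every control mouse, as did 4.91% of all tested genes. They were picked by small p on this same contrast, so nothing is read from that separation. The call of Phf11b was lost without the pools holding markers of other cells (adjusted p = 0.141), and that of Epsti1 with limma-voom over pools (adjusted p = 0.163). Over all alternatives the largest adjusted p was 5.77e-05 for Ifi27l2a and 0.00803 for Isg15. Without the marker-holding pools the log2 fold change of Isg15 was 5.09. Isg15 gave 29 counts in all control mice and that fit keeps 6 control pools, so the size of this estimate is imprecise. The part of plasmacytoid dendritic, macrophage or T cell RNA in these list results was not tested beyond that fit.

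**Figure D5:**
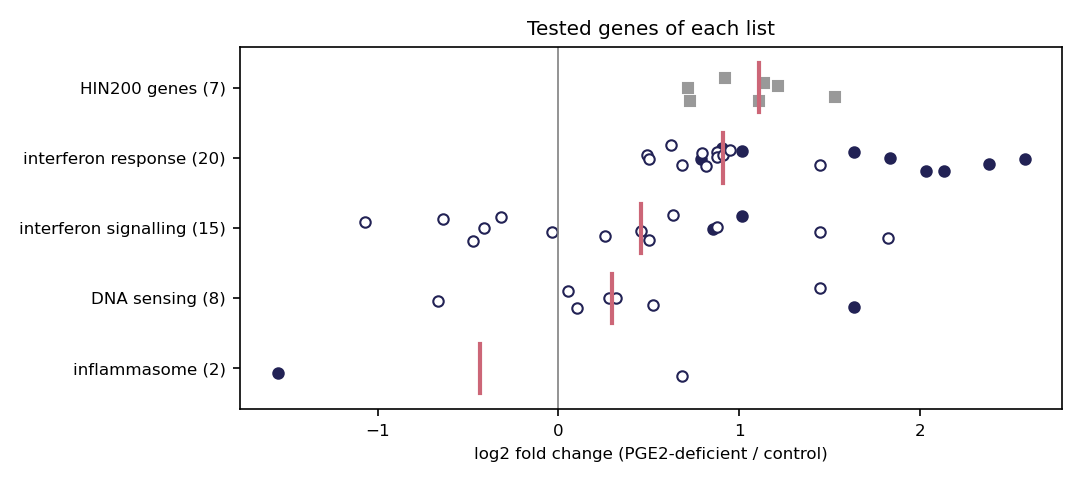
Log2 fold change (PGE2-deficient over control) of each tested gene in 5 lists, with the number tested in brackets; filled circles passed an adjusted p of 0.05, open circles did not, grey squares are the HIN200 genes, drawn without their calls, red bars are list medians, and the vertical spread of points is arbitrary. HIN200 genes range from 0.72 to 1.53 and interferon response genes from 0.49 to 2.58, whereas the DNA sensing and interferon signalling lists extend to both sides of 0.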

How the data were processed

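The deposited values are raw counts, 1 whole number for each gene in each pool. Per the submitters' processing notes, reads were aligned with STAR 2.5.4b to GRCm38 (mm10). The sources used here do not give the counting program, its strand setting, or whether a count is a read or a molecular identifier. Amplified reads are not independent molecules, so the counting intervals may be too narrow. They cover counting error at most and leave out the spread between mice.

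Pools were summed per mouse. Genes were filtered with filterByExpr (minimum count 10), leaving 2076, and compared in edgeR 4.0.16 by its quasi-likelihood test (two-sided, TMM factors, Benjamini-Hochberg adjustment, threshold 0.05). CPM are counts over TMM-scaled totals of tested genes. Each standard error was derived from the F statistic of its fold change. Alternatives used DESeq2 1.42.0, limma 3.58.1 (voom), other scalings and filters, the mouse number as a block, and subsets of pools and mice. The named genes were all family members, up to 4 called genes per list with the smallest p, a fixed panel (Tmem173, Mb21d1, Pycard, Casp1, Irf7, Irf8), the 5 genes most like the family and the 2 most abundant markers per other cell type. A result that the rule would name is not reported here. Members and lists were chosen with earlier results of these data known. The step that leaves out the 2 farthest pools was added after seeing the data. R 4.3.3 and Python 3.11.15 were used.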

Additional observations from a re-analysis of the deposited data

Results flagged for a closer look

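In groups of 4 mice, 58 sets of values were screened for a mouse far from the rest by Dixon's criterion at 95%, and 4 stood out, where chance gives about 1 in 20. Aim2 in PGE2-deficient mouse 2 was at 130.5 CPM, with the other mice of that group between 33.0 and 40.8 CPM, and 9 of its counts came from 1 pool. Ifi213 in control mouse 1 was at 34.5 CPM, with the other control mice at 0. Ifi208 in control mouse 1 was at 11.5 CPM and in PGE2-deficient mouse 3 at 30.6 CPM, each with the other mice of its group at 0. The Ifi213 and Ifi208 values rest on 1 to 6 counts.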

How the results depend on the processing

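Over 20 alternative fits (19 for Ifi203), all 139 log2 fold changes of the 7 tested HIN200 genes were positive. The refits reuse the same mice and the family was chosen on this contrast, so these signs support nothing. The edgeR fit called 56 genes higher and 47 lower. With no count filter it called 110 and 84, with pools 2 and 3 alone 32 and 19, without pools holding markers of other cells 17 and 7, and leaving out 1 mouse 31 to 67 and 23 to 45. The split moved with scaling, to 45 higher and 67 lower with upper quartile factors and 70 and 24 with library totals. With limma-voom over pools 79 were lower. With the mouse number as a replicate block, 45 were higher and 28 lower. Same-numbered mice did not deviate together (correlations of -0.0893 to 0.1, 0 of 4 best with their own number), so they were not treated as paired. DNA sensing genes called numbered 2 with no count filter and with voom, and 0 to 2 leaving out 1 mouse. Interferon signalling genes called numbered 5 with no filter, 0 with pools 2 and 3 alone and 0 to 3 leaving out 1 mouse. Interferon response genes called numbered 14, 5 and 5 to 12 in the same settings, and 5 without the marker-holding pools. Fewer samples enter the subset fits and more genes are tested without a filter; for the other settings the cause was not tested. The precision is limited by 4 mice a group and, for Aim2, Ifi213 and the further family genes, by counts.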
